A study of Homo sapiens with 36 samples.

Results

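DUSP4 was silenced with siRNA in MDA231, the human breast cancer line MDA-MB-231, and the effect was read on 6 of the 36 arrays of a study of 3 breast cancer lines. The 6 arrays are the 3 labelled siDUSP4 (A, B and C) and the 3 labelled siCONTROL (A, B and C), and the comparison covers 17958 genes, each read by 1 probe set (called a probe below) with a single gene symbol. Where several probes named a gene, the one with the highest mean over all 36 arrays was used. The other arrays hold selumetinib-treated MDA231 cells and the same 4 groups in the lines SUM159PT and BT549, with 3 arrays in each group.

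The groups were as follows. siDUSP4 cells received 10 nM of siRNA against DUSP4 by reverse transfection, and the vehicle DMSO. Selumetinib cells (AZD6244, an inhibitor of MEK, the kinase that activates ERK) received the control siRNA and 1 uM of the drug for the last 4 h or 24 h. siCONTROL cells were given a non-targeting siRNA pool, also at 10 nM, and DMSO. All cells were harvested 96 h after transfection, so every group compared here had been transfected, and MDA231 was grown with 10% serum. The labels describe 1 siRNA reagent against DUSP4 and no rescue. Whether the letters A, B and C stand for separate cultures is not given, so the spread behind each p-value is that between these arrays and may be technical.

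DUSP4 encodes a phosphatase of the nucleus that takes the activating phosphates off ERK and, in some cells, off the stress kinases JNK and p38. Its own gene is switched on by ERK, which makes it a feedback brake of the pathway. ERK signalling drives transcription of immediate early genes such as EGR1 and FOS, of ETS factors such as ETV4 and ETV5, and of other brakes, the SPRY, SPRED and DUSP genes. JNK and NF-kB act on genes of inflammation such as IL6 and the chemokines. MDA231 is a mesenchymal line without hormone receptors, and its cells are known for MHC class II and for abundant IL6 and CXCL8.

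Markers of cell state were read first, and they do not tell MDA231 from the other lines with certainty. On siCONTROL arrays the mesenchymal markers VIM, CD44, ZEB1 and AXL averaged 12.15, 12.07, 10.02 and 11.63 (log2 signal, n = 3). The oestrogen receptor gene ESR1, the progesterone receptor gene PGR and the E-cadherin gene CDH1 read 4.09, 3.40 and 4.30, near their values in the other lines. SPARC, a matrix gene listed as a mesenchymal marker, read 5.14 in MDA231, against 11.83 and 10.34 in the arrays titled SUM159PT and BT549. EPCAM, an epithelial marker, read 8.39 in MDA231, against 5.52 and 4.89, so these 2 genes went against a mesenchymal state. The epithelial keratin genes KRT8 and KRT18 did so too, at 10.98 and 10.70 in MDA231, and were also present in SUM159PT (11.12 and 11.10) and BT549 (7.34 and 9.66). Of 13 measured genes of blood and endothelial cells, 1 was higher (LYZ) and 1 lower (PECAM1) after siDUSP4, and the median change was 0.07. The share called was 15.4%, against 17.6% of all genes. The 6 arrays had no identical values. Correlations were 0.9921 to 0.9953 within the groups and 0.9877 to 0.9905 between siDUSP4 and siCONTROL arrays. The 3 arrays of MDA231 with selumetinib for 4 h correlated less with each other (0.9778 to 0.9817 on average), and the upper quartiles of arrays B and C of that group were low (7.48 and 7.67, against 7.89 to 7.96 on siCONTROL arrays). For 24 arrays the labels disagree over which of SUM159PT and BT549 they hold. On siCONTROL arrays RB1 averaged 6.83 in those titled BT549, against 9.4 in SUM159PT and 10.31 in MDA231. CDKN2A averaged 9.82, against 4.12 and 4.23, in the same order. The identity of the lines was not tested further. The titles were followed, and results in MDA231 or against the mean of the other lines do not depend on this.

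The targeted transcript fell. DUSP4 read 7.43, 7.76 and 7.72 on siDUSP4 arrays A, B and C, against 10.15, 10.03 and 9.99 on siCONTROL arrays (log2 signal). The groups did not overlap, and every siDUSP4 array lay more than 2 log2 units below every siCONTROL array. The change was -2.42 ± 0.17 (log2, limma SE, adjusted p = 2.3e-12), which left 18.7% of the control signal. It was the 3rd largest fall among all genes called, behind HLA-DPB1 and HLA-DRA. DUSP4 fell by 1.84 in SUM159PT and by 2.24 in BT549, and the difference between MDA231 and the mean of the other lines, -0.38, did not pass the test (adjusted p = 0.29). Against the same siCONTROL arrays of MDA231, DUSP4 fell by 2.35 after 4 h of selumetinib and by 1.26 after 24 h.

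**Figure D1:**
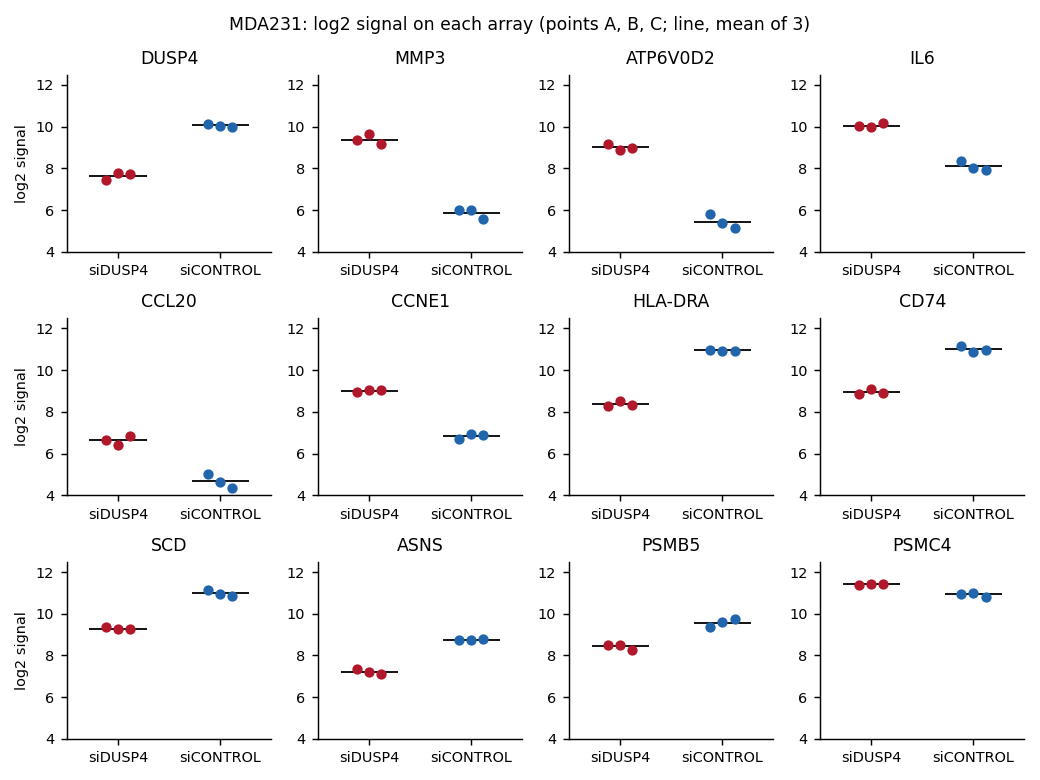
Log2 signal of 12 genes on each MDA231 array (points: arrays A, B and C; line: mean of 3), siDUSP4 on the left and siCONTROL on the right of each panel, all on 1 scale. In each panel the 3 siDUSP4 points lie apart from the 3 siCONTROL points. Heights are not comparable between panels, since each gene has its own probe.

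Across the array, 3166 of 17958 genes (17.6%) were called at an adjusted p under 0.05, of which 1412 (7.86%) were higher and 1754 (9.77%) lower after siDUSP4. Most changes were small. The median size of the called changes was 0.50 for rises and -0.53 for falls, 111 rises and 134 falls reached 1 log2 unit, and 9 rises and 4 falls reached 2. With each array aligned to the same median, the calls were 1188 higher and 2262 lower, a share of 65.6% lower against 55.4% in the main analysis, so the balance of rises and falls depends on scaling. Fitted on the 12 MDA231 arrays alone, the count was 1838, and with quantile normalization repeated on all arrays the count was 4396. With the 3 selumetinib 4 h arrays left out, an alternative chosen after seeing the data, the count was 3947. Groups did not overlap for 3142 genes (17.5%) that were higher and 3385 (18.8%) that were lower. This held for 3116 of the 3166 called genes, so a lack of overlap adds little to a call.

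**Figure D2:**
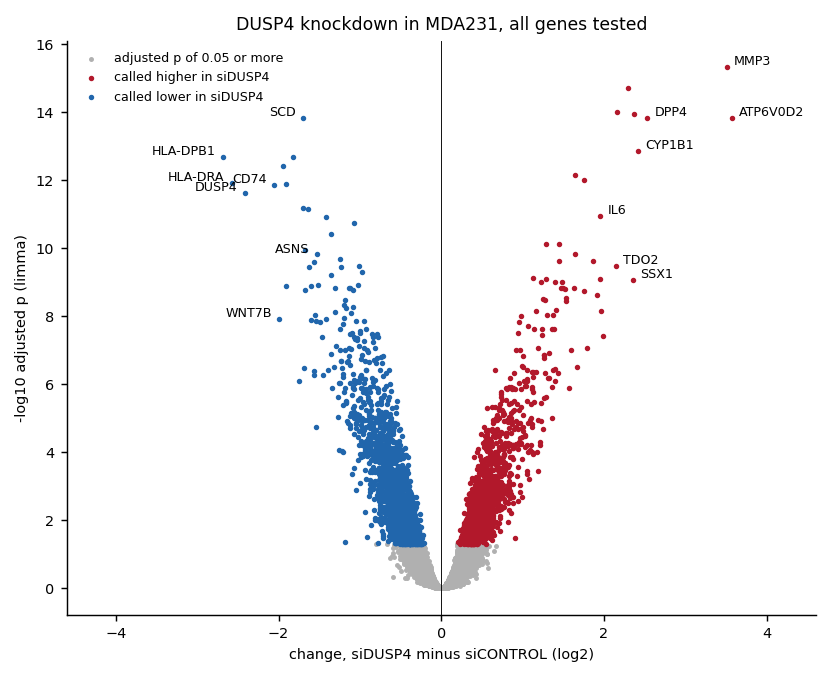
Each point is 1 of 17958 genes. The horizontal axis is the change in MDA231, siDUSP4 minus siCONTROL (log2), and the vertical axis is the negative log10 of limma's adjusted p. Red points are called higher and blue points called lower. ATP6V0D2 and MMP3 lie farthest to the right, and HLA-DPB1, HLA-DRA and DUSP4 farthest to the left.

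The largest rises were ATP6V0D2 and MMP3. ATP6V0D2 encodes a subunit of the proton pump that acidifies lysosomes, an isoform best known from osteoclasts. It read 9.19, 8.86 and 8.96 on siDUSP4 arrays, against 5.81, 5.36 and 5.12 on siCONTROL arrays, a change of 3.57 ± 0.20 (adjusted p = 1.5e-14). MMP3 encodes stromelysin-1, a matrix-degrading protease. It read 9.34, 9.63 and 9.17 on siDUSP4 arrays, against 6.02, 6.01 and 5.58 on siCONTROL arrays, a change of 3.51 ± 0.17 (adjusted p = 4.6e-16). Both genes were thus more than 3 log2 units higher with no overlap between groups.

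Other large rises came from genes of varied function. DPP4, a cell-surface peptidase, rose by 2.53 ± 0.14, and CYP1B1, a cytochrome P450 that oxidises oestrogens and polycyclic hydrocarbons, by 2.41 ± 0.15. SPINK1, a secreted trypsin inhibitor, read 5.90, 6.05 and 6.21 on siDUSP4 arrays, against 3.63, 3.65 and 3.76 on siCONTROL arrays, where it was dim. SSX1, a cancer-testis antigen gene, rose by 2.36 ± 0.21, and GCNT3, which branches mucin sugars, by 2.30 ± 0.12. TDO2, which opens the tryptophan ring in the kynurenine pathway, rose by 2.14 ± 0.18, and TFPI2, a secreted protease inhibitor, by 1.95 ± 0.18. CALB1, a calcium buffer, had the widest spread among these genes, with 5.56, 4.49 and 5.64 on siDUSP4 arrays, against 3.28, 3.12 and 3.34 on siCONTROL arrays. The complement regulator gene C4BPB (1.86), the receptor gene GPRC5B (1.80), the secretory chaperone gene SCG5 (1.76), the carboxypeptidase gene CPA4 (1.75), the Ras activator gene RASGRP3 (1.65), the skin barrier gene FLG (1.64) and the membrane traffic gene MAL2 (1.63) completed the 20 largest rises together with the cyclin and cytokine genes below.

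Beyond DUSP4 and the MHC class II genes, the largest fall was that of WNT7B, a Wnt ligand. It averaged 5.44 ± 0.06 on siDUSP4 arrays and 7.44 ± 0.14 on siCONTROL arrays (SD, n = 3 each), a change of -1.99 ± 0.21 (adjusted p = 1.2e-08). H6PD, which makes NADPH inside the endoplasmic reticulum, changed by -1.91 ± 0.13, and SLITRK6, a neuronal adhesion gene, by -1.91 ± 0.18, with a dim signal of 3.98 to 4.14 on siDUSP4 arrays. TNC, which encodes the matrix protein tenascin-C, read 9.39, 9.49 and 9.53 on siDUSP4 arrays, against 11.19, 11.16 and 11.15 on siCONTROL arrays, a change of -1.70 ± 0.12. RASD1, a small GTPase (-1.69), SEMA4B, a semaphorin (-1.68), TK2, the mitochondrial thymidine kinase (-1.63), HAS2, which makes hyaluronan (-1.57), DEPP1, a FOXO target (-1.57), and ANKRD22 (-1.74) were among the 20 largest falls.

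The members of 31 gene lists were counted against these backgrounds, 722 measured genes in all. The share of a list that was called ranged from 0% of the EGF receptors and ligands to 81.8% of MHC class II, against 17.6% of all genes, and the median change of all genes was 0.01. No list was tested as a set. Probes of a gene can disagree. Another, less bright probe did not pass the test for EDEM1, KRT18, PECAM1, PSMC6, PSMD4, PSPH, RBL1 or TAPBP, whose brightest probe did, and SMAD2 had a second probe that was lower (-0.53) while its brightest was not called (-0.19).

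**Figure D3:**
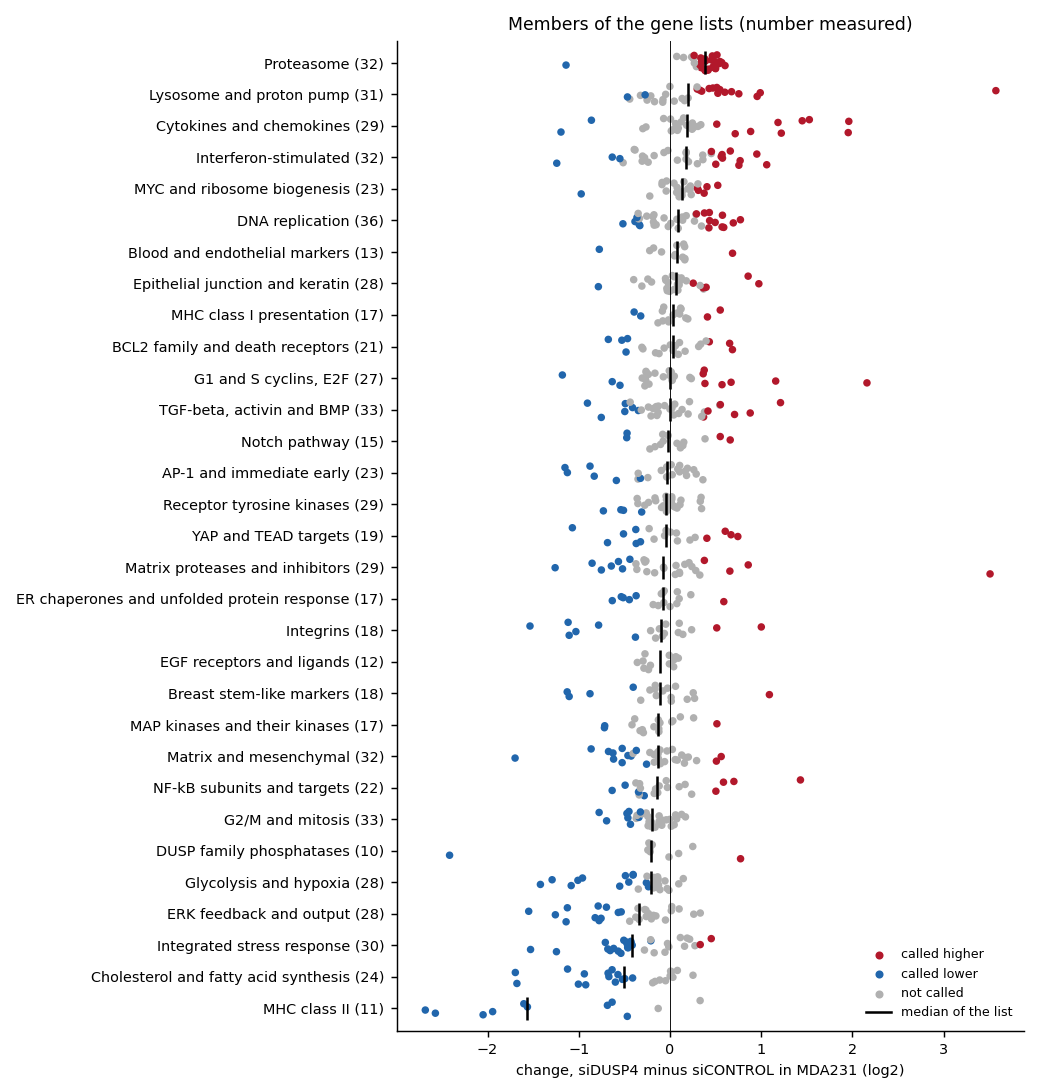
Change of each measured list member in MDA231, siDUSP4 minus siCONTROL (log2, horizontal axis), with lists ordered by their median (black tick) and the number measured in brackets. Red points are called higher, blue points called lower and grey points not called. Proteasome genes lie on the right apart from 1 gene, and MHC class II and lipid synthesis genes on the left.

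Of 10 measured phosphatases of the DUSP family, 1 was higher and 1, DUSP4 itself, lower. Among all genes 17.6% were called, so this count does not set the family apart. DUSP1, which also acts on JNK and p38, read 11.09, 11.08 and 11.06 on siDUSP4 arrays, against 10.34, 10.20 and 10.37 on siCONTROL arrays, a change of 0.77 ± 0.13 (adjusted p = 5.9e-05). The groups did not overlap. DUSP6, the ERK phosphatase of the cytoplasm, read 11.12, 11.15 and 11.16 on siDUSP4 arrays, against 11.55, 11.22 and 11.32 on siCONTROL arrays (change -0.22, adjusted p = 0.60). DUSP5, another nuclear ERK phosphatase, differed by 0.09 (adjusted p = 0.81), DUSP7 by -0.24, DUSP10 by -0.20, DUSP16 by -0.23 and DUSP8 by -0.22, none of which passed the test.

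Among 17 measured MAP kinases and their activators, 1 was higher and 2 were lower (17.6% called, the same share as of all genes). MAPK3, which encodes ERK1, read 8.41, 8.57 and 8.62 on siDUSP4 arrays, against 9.19, 9.24 and 9.31 on siCONTROL arrays, a change of -0.72 ± 0.13 (adjusted p = 7.7e-05). MAP2K5, the activator of ERK5, changed by -0.72 ± 0.12, and MAPK8, which encodes JNK1, by 0.51 ± 0.12 (adjusted p = 0.0029). In each of these 3 genes the groups did not overlap, as in 3116 of the 3166 called genes. The count of lower genes was 5 with quantile normalization repeated or the selumetinib 4 h arrays left out. The gene of ERK2 was not analysed here.

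Genes listed under ERK feedback and output, not all of them targets of ERK, were lower or not called. Of 28 measured genes of this list, 11 were lower and none higher, with a median change of -0.35 (9.77% of all genes were lower). EGR1, an immediate early transcription factor, read 7.85, 7.97 and 8.11 on siDUSP4 arrays, against 9.13, 9.06 and 9.11 on siCONTROL arrays, a change of -1.13 ± 0.17 (adjusted p = 8.4e-06). SPRY1, a feedback inhibitor of receptor signalling, read 6.99, 7.10 and 7.13 on siDUSP4 arrays, against 8.25, 8.24 and 8.15 on siCONTROL arrays, a change of -1.14 ± 0.11 (adjusted p = 1.5e-09). MYEOV (-1.55), the kinase-like gene TRIB2 (-1.26), the ETS factor genes ETV4 (-0.82), ETV1 (-0.76) and ELK3 (-0.70), the repressor gene CIC (-0.79) and the feedback inhibitor gene SPRY4 (-0.78) were also lower. SPRY2 (-0.44, adjusted p = 0.15), ETV5 (-0.38, adjusted p = 0.10) and FOSL1 (-0.35, adjusted p = 0.15) did not pass the test, and neither did the cyclin D1 gene CCND1 (-0.28) or MYC (0.10).

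The AP-1 and immediate early list had 6 lower and 0 higher of 23 measured (26.1% called, against 17.6% of all genes). FOS read 5.85, 6.02 and 5.49 on siDUSP4 arrays, against 6.45, 6.60 and 6.08 on siCONTROL arrays, a change of -0.59 ± 0.15 (adjusted p = 0.0053). Here the gap between the groups was small, 6.02 being the highest siDUSP4 value and 6.08 the lowest siCONTROL value. The orphan receptor gene NR4A2 (-1.15), KLF4 (-0.88), JUND (-0.83) and FOSL2 (-0.32) were lower, while JUN (-0.24) and ATF3 (0.29) were not called. None of 12 EGF receptors and ligands was called on its brightest probe, where the largest difference was that of TGFA (-0.36). A second probe of NRG1, an ERBB ligand gene, averaged 8.21 on siDUSP4 arrays and 8.80 on siCONTROL arrays and was called lower (-0.595 ± 0.143, adjusted p = 0.0028), while its brightest probe gave -0.009. Of 29 other receptor tyrosine kinases, 4 were lower: INSR (-0.73), MERTK (-0.54), AXL (-0.51) and MET (-0.31). In all 13.8% of them were called, against 17.6% of all genes, so this count does not set them apart. With quantile normalization repeated, 2 EGF family genes were called lower and 2 receptor tyrosine kinases higher.

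Selumetinib values stand beside these. In MDA231, 15.6% of all genes were called after 4 h of the drug and 17.7% after 24 h. Of the ERK output genes, 26 of 28 were lower after 4 h and 23 after 24 h (14.5% and 10.3% of all genes were lower), and the median changes were -1.01 and -1.01, against -0.35 after siDUSP4. All 3 comparisons share the siCONTROL arrays, and the 4 h arrays include the ones with low upper quartiles. DUSP6 changed by -0.22 after siDUSP4, by -4.53 after 4 h of selumetinib and by -3.16 after 24 h. SPRY4 changed by -0.78, -4.32 and -3.26 in the same order, ETV5 by -0.38, -1.16 and -2.28, EGR1 by -1.13, -3.33 and -3.54, and FOSL1 by -0.35, -1.71 and -1.71. The values of SPRY1 were closer together, at -1.14, -0.999 and -0.49. DUSP1 was higher after siDUSP4 (0.77) and lower with the drug (-0.59 at 4 h and -0.83 at 24 h).

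**Figure D4:**
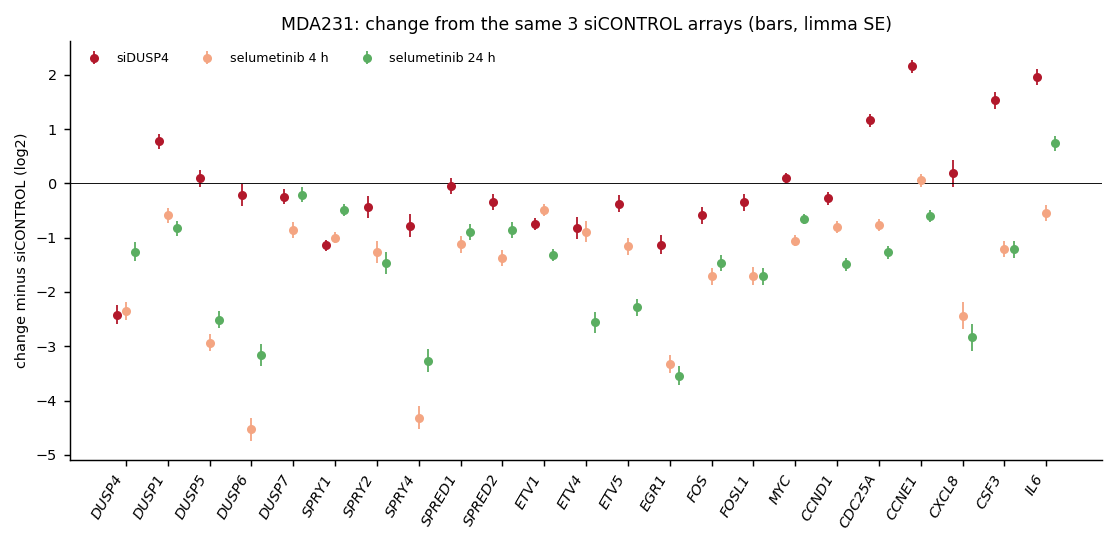
Change from the same 3 siCONTROL arrays of MDA231 (log2, points with limma SE) after siDUSP4, selumetinib for 4 h and selumetinib for 24 h, for DUSP4 and other genes of the ERK pathway, G1 regulators and cytokines. DUSP6, SPRY4 and EGR1 lie far below 0 with the drug, with smaller changes after siDUSP4, and CCNE1, CDC25A, CSF3 and IL6 lie above 0 after siDUSP4.

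Several inflammatory cytokine genes rose. Of 29 measured cytokines and chemokines, 9 were higher and 2 lower, with a median change of 0.18 (7.86% of all genes were higher). IL6, a cytokine that signals through STAT3, read 10.02, 9.98 and 10.16 on siDUSP4 arrays, against 8.33, 8.03 and 7.94 on siCONTROL arrays, a change of 1.95 ± 0.15 (adjusted p = 1.1e-11). A second, less bright IL6 probe gave 0.53 (adjusted p = 0.035). CCL20, a chemokine that attracts cells with the receptor CCR6, read 6.67, 6.43 and 6.82 on siDUSP4 arrays, against 5.04, 4.63 and 4.36 on siCONTROL arrays, a change of 1.96 ± 0.20. CSF3, the granulocyte growth factor G-CSF, read 7.77, 8.43 and 7.92 on siDUSP4 arrays, against 6.43, 6.61 and 6.50 on siCONTROL arrays, a change of 1.53 ± 0.15. All 3 genes were higher with no overlap between groups. IL1B read 11.65, 11.80 and 11.64 on siDUSP4 arrays, against 10.49, 10.52 and 10.42 on siCONTROL arrays, a change of 1.22 ± 0.19. The other rises were CCL26 (1.45), the monocyte chemokine gene CCL2 (1.18), IL24 (0.88), IL1A (0.71) and CXCL11 (0.51).

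Other cytokine genes were lower or not called. CXCL8, the neutrophil chemokine IL-8, read 9.98, 9.72 and 9.89 on siDUSP4 arrays, against 10.23, 9.47 and 9.34 on siCONTROL arrays (change 0.18, adjusted p = 0.75). The groups overlapped, with siCONTROL array A the highest of the 6. IL11, an IL6 relative, read 6.02, 6.22 and 6.39 on siDUSP4 arrays, against 7.44, 7.42 and 7.36 on siCONTROL arrays, a change of -1.20 ± 0.12 (adjusted p = 1.1e-08), and the macrophage growth factor gene CSF1 changed by -0.86 ± 0.13. CXCL2 (0.26) and IL18 (0.24) were not called. With selumetinib, IL1B changed by -2.11 at 4 h and -2.66 at 24 h, CSF3 by -1.20 and -1.22, and CXCL8 by -2.43 and -2.83, while IL6 changed by -0.55 and 0.74. CCL20 was not called with the drug (-0.27 and -0.18).

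The IL6 promoter is shown because IL6 was among the largest cytokine rises, and the NF-kB decamer found in it is in capitals. The 250 bases before the RefSeq start site lie at chr7:22726950-22727199 on the plus strand of GRCh38.p14.
IL6: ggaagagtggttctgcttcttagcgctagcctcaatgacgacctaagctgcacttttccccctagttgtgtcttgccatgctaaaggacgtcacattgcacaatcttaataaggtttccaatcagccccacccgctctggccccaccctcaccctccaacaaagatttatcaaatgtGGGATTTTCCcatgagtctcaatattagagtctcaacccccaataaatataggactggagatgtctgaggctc
The decamer runs from base -73 to base -64, counting the start site as the base after -1. It was found in 13.2% of 53 promoters of the 50 largest rises (36 genes had a promoter in the table), in 10.9% of 55 promoters of the 50 largest falls (40 genes) and in 11.4% of 19634 promoters of all tested genes. The AP-1 motif TGANTCA was found in 13.2%, 7.27% and 5.27% of the same promoters, the ETS motif CCGGAAG in 1.89%, 7.27% and 10.7%, the E2F motif TTCCCGC in 7.55%, 7.27% and 7.17%, and the interferon-stimulated response element in 0%, 1.82% and 2.63%. Both strands were searched. A match is a description of the letters, and some genes have several promoters.

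NF-kB subunits and targets were split, with 4 higher and 4 lower of 22 measured (36.4% called, against 17.6% of all genes). PTGS2, which encodes the prostaglandin synthase COX-2, read 10.73, 10.95 and 10.86 on siDUSP4 arrays, against 9.59, 9.28 and 9.39 on siCONTROL arrays, a change of 1.43 ± 0.18 (adjusted p = 4.7e-07). The deubiquitinase gene CYLD (0.70), the mitochondrial dismutase gene SOD2 (0.59) and the inhibitor gene NFKBIB (0.50) were higher. The inhibitor genes NFKBIE (-0.64) and NFKBIA (-0.35), the adhesion gene ICAM1 (-0.49) and the subunit gene NFKB1 (-0.28) were lower. The 4 lower calls became 7 with quantile normalization repeated, and 2 without any one of siDUSP4 arrays A or C or siCONTROL arrays A or B.

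Among interferon-stimulated genes rises and falls were both called, with 10 higher and 3 lower of 32 measured and a median change of 0.18. The share called was 40.6%, against 17.6% of all genes. IFIT2, which binds viral RNA, read 7.69, 7.70 and 7.85 on siDUSP4 arrays, against 6.89, 6.75 and 6.42 on siCONTROL arrays, a change of 1.06 ± 0.11 (adjusted p = 1.9e-08). IFI35 (0.95), MX1 (0.77), IFIT1 (0.76) and the transcription factor gene IRF1 (0.56) were also higher. IFITM1, which blocks virus entry, changed by -1.24 ± 0.16, and the RNA sensor gene IFIH1 (-0.63) and OAS3 (-0.55) were lower as well. ISG15 (0.20) and IFI6 (0.36) were not called.

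MHC class II genes, which present peptides to CD4+ T cells, included the 2 largest falls of all. Of 11 measured, 9 were lower and 0 higher, and the median change was -1.56 (9.77% of all genes were lower). HLA-DPB1 read 7.71, 7.52 and 7.46 on siDUSP4 arrays, against 10.17, 10.24 and 10.33 on siCONTROL arrays, a change of -2.68 ± 0.17 (adjusted p = 2.0e-13). HLA-DRA, the nearly invariant chain of HLA-DR, read 8.26, 8.54 and 8.34 on siDUSP4 arrays, against 10.99, 10.92 and 10.94 on siCONTROL arrays, a change of -2.57 ± 0.17 (adjusted p = 1.2e-12). CD74, the chaperone that fills the groove of new class II molecules, read 8.85, 9.09 and 8.89 on siDUSP4 arrays, against 11.14, 10.87 and 10.97 on siCONTROL arrays, a change of -2.05 ± 0.14. In these 3 genes the groups lay more than 1.5 log2 units apart.

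The rest of the class II machinery followed with smaller changes. HLA-DPA1 changed by -1.95 ± 0.13, HLA-DMB, which helps to load peptides, by -1.60 ± 0.17, HLA-DQB1 by -1.56 ± 0.19, HLA-DMA by -0.69 ± 0.16 and HLA-DOA by -0.64 ± 0.18. CIITA, the transactivator that class II genes need, read 5.00, 5.18 and 5.12 on siDUSP4 arrays, against 5.48, 5.63 and 5.60 on siCONTROL arrays, a change of -0.47 ± 0.11 (adjusted p = 0.0025). Its signal was low in both groups. HLA-DQA1 (-0.13) and HLA-DOB (0.33) were not called. HLA genes are alike enough for probes to be shared between them, and probes of 1 HLA gene are not independent readings. Some probes of HLA-DPA1, of HLA-DMA and of HLA-DQB1 gave identical values. All 3 probes of HLA-DRA gave -2.46 to -2.57 and all 3 of HLA-DPB1 -2.56 to -2.76, whereas 1 dim probe of HLA-DQB1 gave -0.01 and a second probe of HLA-DOA gave -0.35 (adjusted p = 0.080). HLA-DRB3 (-1.82) is uncertain, since probes can be shared between HLA genes.

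Of 17 measured genes of MHC class I presentation, 2 were higher and 2 lower (23.5% called, against 17.6% of all genes), and the median change was 0.03. HLA-B (-0.13) and the light chain gene B2M (0.19) were not called. The peptidase gene ERAP2 (0.55) and the transporter gene TAP2 (0.41) were higher, and the class I transactivator gene NLRC5 (-0.39) and TAPBP (-0.32) were lower. With 1 array left out, 0 to 2 calls were left in each direction, and both directions together held 0 without siDUSP4 array C. With 24 h of selumetinib, against the same controls, 9 of the 11 class II genes were higher (7.36% of all genes). Among them were HLA-DMB (1.67), HLA-DMA (1.30) and HLA-DPB1 (1.06). At 4 h HLA-DMA was lower (-0.60) and no other class II gene was called.

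The cyclin E gene had the largest change among the cell cycle genes listed. CCNE1, which activates CDK2 for entry into S phase, read 8.97, 9.04 and 9.05 on siDUSP4 arrays, against 6.72, 6.96 and 6.89 on siCONTROL arrays, a change of 2.16 ± 0.12 (adjusted p = 1.0e-14). The groups lay about 2 log2 units apart. CDC25A, the phosphatase that activates CDK2, read 8.31, 8.49 and 8.22 on siDUSP4 arrays, against 7.11, 7.27 and 7.16 on siCONTROL arrays, a change of 1.16 ± 0.12 (adjusted p = 7.1e-09). CCNE2 (0.67), the cyclin D3 gene CCND3 (0.57), CDK6 (0.38) and the inhibitor gene CDKN1B (0.36) were also higher. RBL1, which encodes the pocket protein p107, read 7.99, 7.90 and 7.89 on siDUSP4 arrays, against 9.10, 9.11 and 9.11 on siCONTROL arrays, a change of -1.18 ± 0.11. CDK2 (-0.63) and CCND2 (-0.55) were lower. In all, 7 of 27 genes of this list were higher and 3 lower (37.0% called, against 17.6% of all genes). With 24 h of selumetinib CCNE1 changed by -0.60, CCNE2 by -1.08 and CDC25A by -1.27, all called lower, while CCND3 was higher (0.43).

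Replication genes were divided and mitotic genes lower or not called. Of 36 DNA replication genes, 11 were higher and 5 lower (44.4% called, against 17.6% of all genes). RRM2, a subunit of ribonucleotide reductase, averaged 9.97 ± 0.13 on siDUSP4 arrays and 9.20 ± 0.04 on siCONTROL arrays (SD, n = 3), and MCM10 (0.69), ORC6 (0.59) and CDC6 (0.57), which build the replication origin complex, were higher. Of the 6 subunits of the MCM2 to MCM7 helicase, 3 were lower, MCM6 (-0.52), MCM5 (-0.34) and MCM2 (-0.33). The count of lower replication genes was 1 without any one of siDUSP4 array A or siCONTROL arrays B or C, 3 without siDUSP4 array B or C, and 9 with quantile normalization repeated. Of 33 genes of G2 and mitosis, 8 were lower and 0 higher, with a median of -0.20 (24.2% called, against 17.6% of all genes). PRC1, which bundles spindle microtubules, averaged 9.57 ± 0.08 on siDUSP4 arrays and 10.35 ± 0.01 on siCONTROL arrays, a change of -0.78 ± 0.09 (adjusted p = 4.0e-08). KIF14 (-0.70), FOXM1 (-0.45), PLK1 (-0.43) and MKI67 (-0.33) were lower, and CCNB1 (-0.16) and BIRC5 (-0.24) were not called.

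Genes of apoptosis moved in both directions, with 33.3% of the list called, against 17.6% of all genes. BAK1 (0.68), BCL2L11, which encodes the killer protein BIM (0.65), and FAS (0.43) were higher. MCL1, a survival gene (-0.48), and the TRAIL receptor genes TNFRSF10C (-0.68), TNFRSF10B (-0.53) and TNFRSF10D (-0.47) were lower. The other 14 of 21 measured genes, BCL2 (0.09) and BCL2L1 (-0.12) among them, were not called.

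Genes of lipid synthesis were lower or not called. Of 24 measured genes of cholesterol and fatty acid synthesis, 14 were lower and 0 higher, with a median of -0.51. Among all genes 9.77% were lower. SCD, which puts the double bond into stearate, read 9.36, 9.25 and 9.25 on siDUSP4 arrays, against 11.16, 10.93 and 10.86 on siCONTROL arrays, a change of -1.70 ± 0.10 (adjusted p = 1.5e-14). A second SCD probe gave -1.07. INSIG1, the sterol sensor that holds SREBP in the endoplasmic reticulum, read 8.49, 8.34 and 8.45 on siDUSP4 arrays, against 10.30, 10.03 and 10.00 on siCONTROL arrays, a change of -1.68 ± 0.14. In both genes the groups did not overlap.

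The genes of the SREBP factors themselves were among the falls, with SREBF2 at -1.01 ± 0.11 and SREBF1 at -0.92 ± 0.19. FADS2, a fatty acid desaturase (-1.12), STARD4, a sterol carrier (-0.94), FASN, the fatty acid synthase (-0.68), and MSMO1 (-0.67), MVK (-0.60), DHCR7 (-0.57), SQLE (-0.50) and LSS (-0.41) of the sterol pathway were lower. HMGCS1 (-0.19) and PMVK (-0.17) were not called. After 24 h of selumetinib 11 genes of this list were higher and 0 lower, among them SREBF1 (1.17), LSS (0.85) and SCD (0.82), and after 4 h 1 was higher (7.36% and 1.11% of all genes were higher).

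Genes of the integrated stress response, which ATF4 switches on when amino acids are short, were also lower. Of 30 measured, 17 were lower and 2 higher, with a median of -0.42 (9.77% of all genes were lower). ASNS, the asparagine synthetase, read 7.34, 7.19 and 7.12 on siDUSP4 arrays, against 8.74, 8.72 and 8.79 on siCONTROL arrays, a change of -1.53 ± 0.13 (adjusted p = 1.5e-10). DDIT4, an inhibitor of mTORC1, changed by -1.25 ± 0.11. ATF4 itself read 9.59, 9.83 and 9.78 on siDUSP4 arrays, against 10.24, 10.18 and 10.40 on siCONTROL arrays, a change of -0.54 ± 0.09 (adjusted p = 6.4e-05). The serine synthesis genes PSAT1 (-0.68), PHGDH (-0.62) and PSPH (-0.46), the glutathione-degrading CHAC1 (-0.66), TRIB3 (-0.57) and 3 of 4 tRNA synthetase genes, WARS1 (-0.51), AARS1 (-0.43) and GARS1 (-0.21), were lower. PPP1R15A (0.45) and the transporter gene SLC3A2 (0.33) were higher, and DDIT3, the CHOP gene, was not called (-0.06). Without siDUSP4 array A the 17 lower calls became 11, and 1 of the 2 rises was lost without any one of siDUSP4 arrays B or C or siCONTROL arrays A or B.

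The ASNS promoter is shown for the ATF4 motif TGATGNAA, in capitals. Its 250 bases before the RefSeq start site lie at chr7:97872409-97872658 on the minus strand of GRCh38.p14.
ASNS: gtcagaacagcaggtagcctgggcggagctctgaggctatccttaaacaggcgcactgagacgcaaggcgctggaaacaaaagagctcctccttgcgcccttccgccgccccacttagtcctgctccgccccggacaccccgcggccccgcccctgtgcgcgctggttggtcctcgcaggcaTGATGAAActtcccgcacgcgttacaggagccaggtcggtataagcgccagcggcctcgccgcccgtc
The match runs from base -68 to base -61. The motif was found in 0% of promoters of the 50 largest rises, 5.45% of those of the 50 largest falls (3 promoters) and 2.30% of all promoters.

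Genes of endoplasmic reticulum chaperones and the unfolded protein response gave 1 higher and 5 lower of 17 measured. The share called was 35.3%, against 17.6% of all genes. HERPUD1 (-0.63), EDEM1 (-0.54) and XBP1 (-0.51) were lower and SDF2L1 (0.59) was higher, while HSPA5, the main chaperone BiP, averaged 12.14 on both siDUSP4 and siCONTROL arrays. The call of SDF2L1 was lost without any one of siDUSP4 arrays A or B or siCONTROL arrays A or C. Of 28 genes of glycolysis and hypoxia, 12 were lower and 0 higher (42.9% called, against 17.6% of all genes). ALDOC, an aldolase (-1.42), CA12, a carbonic anhydrase (-1.29), PFKFB4 (-1.08), PDK1 (-1.01) and NDRG1 (-0.96) led the falls, while HIF1A (-0.01), VEGFA (-0.13) and LDHA (-0.06) were not called. In the list of MYC and ribosome biogenesis, 26.1% were called, against 17.6% of all genes. Of its 23 genes 5 were higher, RRP12 the most (0.52), and the MYC antagonist gene MXI1 was lower (-0.97). The 5 became 3 without any one of siDUSP4 arrays A or B or siCONTROL array A, and 9 with quantile normalization repeated.

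Most proteasome genes rose by small amounts, and 1 fell. Of 32 measured, 25 were higher and 1 lower, with a median of 0.39 (7.86% of all genes were higher). The rises lay between 0.26 and 0.60. They covered 12 of 14 genes of the 20S core, which cuts proteins, 4 of 5 ATPase genes (PSMC) and 6 of 9 other genes (PSMD) of the 19S cap, and 3 of 4 activator genes (PSME). PSMC4 read 11.40, 11.43 and 11.42 on siDUSP4 arrays, against 10.96, 11.01 and 10.81 on siCONTROL arrays, a change of 0.49 ± 0.08 (adjusted p = 2.8e-05). PSMB4 changed by 0.60 ± 0.11, PSMC3 by 0.57 ± 0.09 and PSMC1 by 0.54 ± 0.09. Fitted on the 12 MDA231 arrays alone, 13 were called higher.

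The exception was PSMB5, the catalytic subunit with chymotrypsin-like activity that bortezomib inhibits. It read 8.52, 8.51 and 8.26 on siDUSP4 arrays, against 9.34, 9.62 and 9.75 on siCONTROL arrays, a change of -1.14 ± 0.14 (adjusted p = 2.0e-07). PSMB5 was lower in the other lines too, by 1.44 in SUM159PT and by 1.78 in BT549, and the line difference of 0.47 did not pass the test (adjusted p = 0.067). With selumetinib in MDA231 it changed by -0.32 at 4 h (adjusted p = 0.10) and by -0.03 at 24 h (adjusted p = 0.94). The sequence of the DUSP4 siRNA was not analysed here, so whether it matches PSMB5 was not tested, and a fall that follows DUSP4 loss cannot be told apart from an effect of the siRNA itself. The rise of many other subunits was larger in MDA231. The line difference was called higher for 19 of 32 proteasome genes and lower for none (5.91% and 5.59% of all genes), and no proteasome gene was higher in SUM159PT or BT549 (1.05% and 4.97% of all genes).

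**Figure D5:**
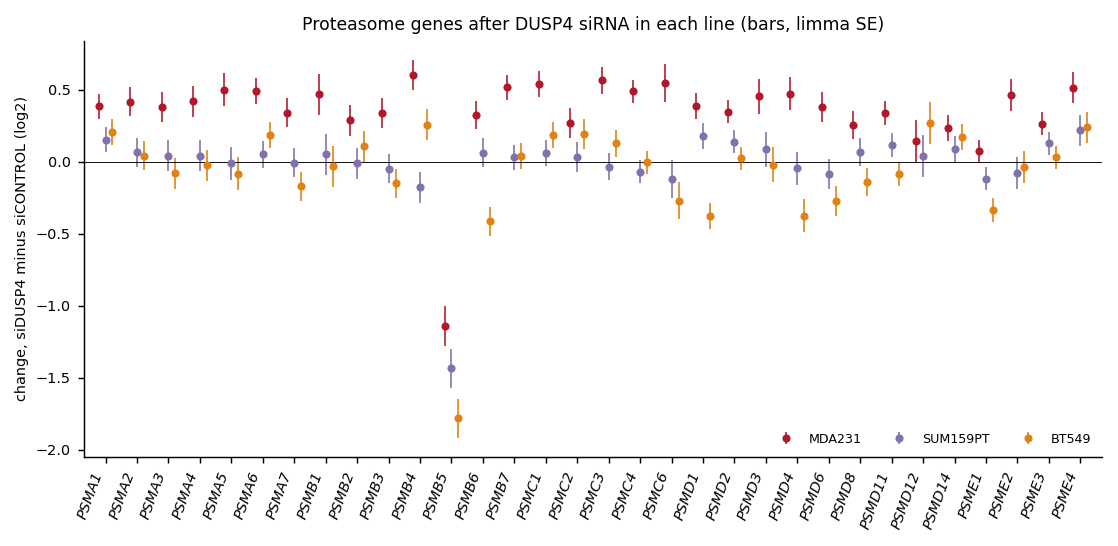
Change of each measured proteasome gene after siDUSP4 (siDUSP4 minus siCONTROL, log2, points with limma SE) in MDA231, SUM159PT and BT549, the last pair by array title. MDA231 points lie above 0 for all genes except PSMB5, which lies below -1 in all 3 lines.

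The proton pump of the lysosome showed a similar pattern of small rises. Of its 12 measured genes, 10 were higher and 0 lower, with a median of 0.45 (7.86% of all genes were higher). Apart from ATP6V0D2 these were rises of 0.30 to 0.67, with ATP6V0B at 0.67 ± 0.14 and ATP6V0A1 at 0.60 ± 0.12. Among 19 other lysosomal genes 4 were higher, the glycoprotein gene GPNMB (0.99), the galactosidase gene GLA (0.96), the calcium channel gene MCOLN1 (0.75) and the autophagy receptor gene SQSTM1 (0.52). HEXA (-0.47) and NPC1 (-0.27) were lower, and the cathepsin genes CTSB (-0.25) and CTSD (-0.08) and the regulator gene TFEB (-0.08) were not called. The count of lower lysosomal genes was 6 with quantile normalization repeated, 0 without siDUSP4 array A and 1 without any one of siDUSP4 array C or the siCONTROL arrays.

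Most called matrix genes were lower, with 11 lower and 2 higher of 32 measured genes of matrix and mesenchymal state. The share called was 40.6%, against 17.6% of all genes. Beside TNC, COL13A1 (-0.87), COL6A1 (-0.68), COL4A2 (-0.63) and COL6A3 (-0.37) made 4 of 13 collagen genes that were lower. SPARC (-0.62), the cadherin gene CDH11 (-0.53), the crosslinking genes LOXL2 (-0.46) and LOX (-0.43) and VIM (-0.26) were lower. THBS1 (0.56) and SNAI1 (0.51) were higher, and ZEB1 (-0.17) and SNAI2 (0.29) were not called. Only 1 rise was left without any one of siDUSP4 array B or siCONTROL arrays B or C. Fitted on the 12 MDA231 arrays alone, 7 were lower.

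Proteases and adhesion receptors moved in both directions. Of 29 proteases and inhibitors, 4 were higher and 7 lower (37.9% called, against 17.6% of all genes). MMP3 stood alone in size, the other rises being ADAMTS1 (0.86), MMP12 (0.66, with a dim signal of 3.55 on siDUSP4 arrays and 2.89 on siCONTROL arrays) and PLAT (0.38). MMP1 (0.33), MMP10 (0.10) and MMP9 (-0.17) were not called. ADAM8 (-1.26), the inhibitor gene TIMP2 (-0.85), the membrane protease gene MMP14 (-0.75), ADAM17 (-0.64) and the urokinase gene PLAU (-0.57) were lower. Among 18 integrins, 6 were lower and 2 higher (44.4% called). ITGB4 (-1.54 ± 0.16) and ITGA6 (-1.11 ± 0.11), the partners of the laminin receptor of hemidesmosomes, were both lower, as were ITGB8 (-1.12), ITGA10 (-1.03) and ITGB5 (-0.78), and ITGB3 (1.00) and ITGB2 (0.51) were higher. Only 1 of these rises was left without any one of the siDUSP4 arrays or siCONTROL arrays B or C.

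Of 28 measured epithelial genes, 5 were higher and 1 lower, so that 21.4% were called, against 17.6% of all genes. CLDN7, a tight junction gene, averaged 9.34 ± 0.17 on siDUSP4 arrays and 8.37 ± 0.16 on siCONTROL arrays, the epithelial factor gene ELF3 changed by 0.86, KRT18 by 0.40, and KRT19 by -0.79. CDH1 (-0.0037) and EPCAM (0.086) were not called. Without any one of the siDUSP4 arrays, or siCONTROL arrays A or B, 2 or 3 of these rises were left. Stem-like markers gave 4 lower, SOX9 (-1.13), ITGA6, KLF4 and NT5E (-0.40), and 1 higher, the transporter gene ABCG2 (1.09), of 18 measured. Of these markers 27.8% were called, against 17.6% of all genes. CD44 averaged 12.09 ± 0.01 on siDUSP4 arrays and 12.07 ± 0.04 on siCONTROL arrays, and CD24 changed by -0.32 (adjusted p = 0.19).

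Among TGF-beta, activin and BMP genes, 6 of 33 were higher and 6 lower (36.4% called, against 17.6% of all genes). The decoy receptor gene BAMBI read 8.12, 8.09 and 8.12 on siDUSP4 arrays, against 6.83, 6.95 and 6.91 on siCONTROL arrays, a change of 1.21 ± 0.21 (adjusted p = 6.2e-05). GDF15 (0.88) and INHBA (0.71) were higher, and LTBP2 (-0.91), TGFB1 (-0.75) and SMAD4 (-0.41) were lower. The count of higher genes was 3 without siDUSP4 array B or without siCONTROL array C. The YAP list had 4 higher and 6 lower of 19, with ANKRD1 (0.74) and AMOTL2 (0.67) above and ASAP1 (-1.07), WWTR1 (-0.69) and YAP1 (-0.37) below. In the Notch list HES1 (0.66) and HEY2 (0.55) were higher and HEY1 (-0.48) and MAML2 (-0.47) lower. The shares called were 52.6% of the YAP list and 26.7% of the Notch list, against 17.6% of all genes.

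The response of MDA231 was set against the mean response of the other lines. The difference was called for 2066 genes (11.5%), 1062 higher and 1004 lower in MDA231, and for 1562 of the 3166 genes called in MDA231. Both calls use the same MDA231 arrays, so some of that overlap is built in. In SUM159PT 509 genes (2.83%) and in BT549 2548 genes (14.2%) were called. Of the MDA231 calls, 185 were also called in SUM159PT with the same sign and 33 with the opposite sign, and for BT549 the counts were 551 and 214.

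Some cytokine, MHC class II and lipid genes were among them. IL6 changed by 1.95 in MDA231, -0.45 in SUM159PT and -0.25 in BT549, a line difference of 2.31 ± 0.18 (adjusted p = 6.4e-11). Of 29 cytokines and chemokines, 10 were called with a higher line difference and 2 with a lower one (5.91% and 5.59% of all genes). SCD changed by -1.70 in MDA231, -0.19 in SUM159PT and 0.03 in BT549, and of 24 lipid synthesis genes 13 were called with a lower line difference and 0 with a higher one. HLA-DRA fell in MDA231 by 2.57 and in SUM159PT by 1.85, with -0.08 in BT549, and 7 of 11 class II genes were called with a lower line difference. EGR1 was lower in MDA231 (-1.13) and higher in BT549 (1.31), and of 28 ERK output genes 8 were called with a lower line difference and 1 with a higher one.

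Cell cycle genes differed as well. CCNE1 changed by 2.16 in MDA231, 0.23 in SUM159PT (adjusted p = 0.42) and 0.80 in BT549. In BT549 22 of 36 replication genes and 13 of 33 mitotic genes were higher (4.97% of all genes). In each list 11 genes were called with a lower line difference (5.59% of all genes). In BT549 19 of 32 matrix genes were lower (9.22% of all genes). Of the 32, 12 were called with a higher line difference (5.91% of all genes).

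Genes called with the same sign in all 3 lines numbered 12 higher and 72 lower. The labels describe 1 DUSP4 siRNA reagent for all 3 lines. A shared change that follows DUSP4 loss therefore cannot be told apart from an effect of the siRNA itself, which was not tested. CDC25A was higher throughout, with 1.16 in MDA231, 0.43 in SUM159PT and 0.90 in BT549, and so was CDK6, with 0.38, 0.47 and 0.70. CD74 was lower throughout, with -2.05, -1.84 and -0.66, as were WNT7B (-1.99, -0.73 and -0.64), SPRY1 (-1.14, -0.45 and -0.70), ITGA6 (-1.11, -0.46 and -1.32), TIMP2 (-0.85, -0.51 and -0.99) and MMP14 (-0.75, -0.52 and -0.87). Chosen after their values were seen, FNBP1L, an adaptor of membrane curvature, gave -1.36, -1.21 and -1.55, PAAF1, a proteasome assembly factor, -1.20, -0.98 and -0.81, STEAP3, a metalloreductase, -1.09, -0.74 and -1.95, and LAMTOR3, a scaffold of MEK and ERK at the endosome, -0.99, -0.78 and -0.82. The largest rise of this kind beside CDC25A was ENTPD7, a nucleotide phosphatase, with 1.12, 0.70 and 0.50.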

How the data were processed

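Expression was read on single-colour Affymetrix arrays. The deposited values are log2 signals, which the authors computed by RMA with Expression Console 1.1 of Affymetrix according to the submitters' processing notes. The array's genome build is not given in the sources used here. Of 33297 probes, 19181 carry 1 gene symbol, 2055 carry several and 12061 are unnamed here. The brightest single-symbol probe of each gene gave 17958 genes, without a filter on dim signal. limma 3.58.1 (R 4.3.3) fitted 12 group means to the 36 arrays together, with 24 residual degrees of freedom and 7.8 from the prior. Every adjusted p-value is limma's with Benjamini-Hochberg adjustment over all genes, and genes were called under 0.05. The line difference is the MDA231 change minus the mean change of the other lines. Scripts were tested on simulated data. With 3 arrays against 3, the smallest p of an exact test is 0.1, so no such test is given. The number of arrays limits the precision.

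Genes were named by a rule: DUSP4, the 20 largest called rises and falls, up to 6 called members per list, the 10 highest and 10 lowest line differences, and fixed ERK pathway genes (215 genes). Other list members stand as examples chosen after their values were seen. The gene set, the 31 lists (722 of 781 genes measured) and the rule were chosen with earlier results of these data known. RefSeq promoters (GRCh38.p14) were matched by gene ID for 13861 genes. Some genes are not analysed here. The replicate letters did not pair the arrays, since the deviations of arrays with the same letter correlated at 0.28, -0.035 and -0.22 (A, B and C). Between unlike letters, siDUSP4 array B with siCONTROL array C gave 0.275, and siDUSP4 array C with siCONTROL array B gave 0.3. The remaining pairs gave -0.237 to -0.055. Whether the groups share batches under unlike letters was not tested.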

Additional observations from a re-analysis of the deposited data

Results flagged for a closer look

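For 20 genes the change after siDUSP4 in MDA231 differed from the mean change of the other lines by a test of that difference, the 10 highest and 10 lowest among genes also called in MDA231 (limma, log2). The differences above 0 were 2.98 for MMP3, 2.92 for TDO2, 2.72 for ATP6V0D2, 2.57 for CYP1B1, 2.42 for SPINK1, 2.41 for DPP4, 2.41 for GPRC5B, 2.33 for TFPI2, 2.31 for IL6 and 2.17 for CCL20. Those below 0 were -2.05 for INSIG1, -1.94 for HLA-DPB1, -1.91 for EGR1, -1.80 for H6PD, -1.77 for DEPP1, -1.74 for RASD1, -1.65 for HLA-DMB, -1.62 for RHOJ, -1.61 for SCD and -1.61 for HLA-DRA. MMP3 was also called higher in BT549 and ATP6V0D2 in SUM159PT (1.30). TDO2 was lower in both (-0.84 in SUM159PT and -0.72 in BT549) and GPRC5B was lower in SUM159PT (-1.05). INSIG1 and EGR1 were higher in BT549 (0.74 and 1.31). HLA-DPB1 was lower in BT549 (-0.93) and HLA-DRA in SUM159PT (-1.85).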

How the results depend on the processing

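The fall of DUSP4 kept its sign and its call in every alternative run, and without 1 array each it ranged from -2.48 to -2.32. Counts of genes past the threshold without 1 array each ranged from 2308 to 2666 in all, 1043 to 1211 higher and 1265 to 1473 lower, and for the line difference from 1458 to 1780 in all, 775 to 944 higher and 683 to 836 lower. Fitted on the 12 MDA231 arrays alone, the counts were 1838 in all, 811 higher and 1027 lower, and the cause was not tested. With quantile normalization repeated, the line difference was called for 3226 genes, 1731 of them lower, and the cause was not tested. With the replicate letter as a block, although the letters did not pair the arrays, 3155 genes were called. Leaving out dim genes removes 6 of the 20 line differences. Low signal limits the size of changes in genes that are dim in 1 group, such as SPINK1, and no separate measure of background was used here. Some differences near 0 that were not called changed sign. CD44 gave -0.012 with quantile normalization repeated and -0.035 with array medians aligned, and without 1 array each -0.004 to 0.037. Without 1 array each, CDH1 gave -0.049 to 0.02, DDIT3 -0.149 to 0.028, EPCAM -0.105 to 0.195, HIF1A -0.048 to 0.021, HSPA5 -0.02 to 0.012, KRT8 -0.099 to 0.026 and NRG1 (brightest probe) -0.07 to 0.025, and NRG1 gave 0.007 with quantile normalization repeated.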
